A study of Homo sapiens with 24 samples.

Results

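The E2F transcription factors E2F1 to E2F8 and their dimer partners TFDP1 and TFDP2 (the proteins DP1 and DP2) were followed through a course of RAS-induced growth arrest. These 10 genes were chosen by their platform gene symbols, each is read by 1 probe, and all 10 were tested among 10958 genes. The cells were IMR90, an established line of human fetal lung fibroblasts. All groups, the 0 h control included, express ER:RAS-G12V, a mutant RAS fused to an estrogen receptor domain that 4-hydroxytamoxifen (4-OHT) switches on. The 8 groups are untreated cells (0 h) and cells in 100 nM 4-OHT for 2 h, 8 h, 24 h, 2 d, 4 d, 6 d or 8 d, with 3 arrays each from biological batches A, B and D (24 Illumina arrays). Later untreated samples were not analysed here, so drug, RAS activation and days in culture cannot be told apart in a comparison with 0 h.

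E2F factors bind the promoters of genes for DNA replication and for entry into S phase. E2F1, E2F2 and E2F3 are the activators, held in check by the retinoblastoma protein RB1 until cyclin-dependent kinases phosphorylate it. E2F4 and E2F5 act mainly as repressors with the RB relatives RBL1 and RBL2, E2F6 represses without RB as part of a Polycomb-type complex, and E2F7 and E2F8 are atypical repressors that bind DNA without a DP partner. In fibroblasts that enter RAS-induced senescence, the RB pathway is known to silence E2F target genes.

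Promoters of E2F genes are themselves known to hold E2F sites, so the 250 bases before the start of 4 members are shown: the 3 activators and E2F7, an atypical member that rose. The sequences are from RefSeq (GRCh38.p14), 5′ to 3′ on the strand of the gene, and capitals mark E2F-type words (TTTCCCGC, TTTGGCGC, TTTGGCGG, TTTCCCGG and TTTCGCG, on both strands).
E2F1, chr20:33686386-33686635, minus strand: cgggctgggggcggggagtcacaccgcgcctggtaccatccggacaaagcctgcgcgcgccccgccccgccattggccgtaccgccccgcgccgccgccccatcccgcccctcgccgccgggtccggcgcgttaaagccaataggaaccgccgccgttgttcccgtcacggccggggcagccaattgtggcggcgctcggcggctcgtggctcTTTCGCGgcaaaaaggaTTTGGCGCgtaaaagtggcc
E2F2, chr1:23531234-23531483, minus strand: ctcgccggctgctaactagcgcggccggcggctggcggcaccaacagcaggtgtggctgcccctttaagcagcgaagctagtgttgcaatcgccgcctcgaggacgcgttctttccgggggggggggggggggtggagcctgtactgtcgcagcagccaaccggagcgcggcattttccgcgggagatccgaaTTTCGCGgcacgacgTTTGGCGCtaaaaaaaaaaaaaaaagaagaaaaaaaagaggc
E2F3, chr6:20401629-20401878, plus strand: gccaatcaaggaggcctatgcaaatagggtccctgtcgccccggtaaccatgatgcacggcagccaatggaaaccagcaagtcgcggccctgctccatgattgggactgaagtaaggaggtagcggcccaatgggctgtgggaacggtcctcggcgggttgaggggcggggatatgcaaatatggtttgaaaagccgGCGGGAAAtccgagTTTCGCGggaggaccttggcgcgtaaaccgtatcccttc
E2F7, chr12:77065570-77065819, minus strand: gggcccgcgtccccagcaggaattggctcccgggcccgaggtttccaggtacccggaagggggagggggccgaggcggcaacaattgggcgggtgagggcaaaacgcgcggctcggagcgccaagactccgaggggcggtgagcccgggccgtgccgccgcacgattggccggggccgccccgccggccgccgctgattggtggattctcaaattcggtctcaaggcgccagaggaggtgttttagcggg
E2F1 and E2F2 both hold TTTGGCGC, which begins 20 and 42 bases before their starts, and this word occurs in 0.55% of 35116 promoter windows of the same length. TTTCGCG, added after the sequences had been seen, lies 37 bases before the start of E2F1, 57 before that of E2F2 and 39 before that of E2F3, and occurs in 1.10% of windows. E2F3 also holds TTTCCCGC on the minus strand, 53 bases before its start (1.39% of windows), in the first of its 2 windows. The E2F7 window holds none of the 5 words and has CCAAT, the word of the factor NFY, 4 times on the minus strand. CCAAT is found in 32.0% of windows, and the E2F3 window shown holds it 4 times and that of E2F1 3 times. Of the 11 windows of the 8 members in the table, 4 hold at least 1 of the first 4 words, against 3.67% of all windows. Besides those of E2F1, E2F2 and E2F3, this counts the window of E2F6, a member that also rose. It holds TTTCCCGG 183 and 78 bases before its start (1.26% of windows). The window of E2F4, another member that rose, holds none of the 5 words, and that of TFDP1, which fell, holds only TTTCGCG. The first 4 words thus occur both in members that fell and in E2F6, which rose. TTTCGCG was found only in E2F1, E2F2, E2F3 and TFDP1, all of which fell for at least part of the course. That word was added after the sequences had been seen, and E2F5 and E2F8 have no window. A link between the words and the changes was not tested.

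Values below are normalized log2 intensities, given in the order batch A, B, D, and differences are log2 fold changes ± standard error from a limma fit of all 24 arrays (n = 3 arrays per time point). A gene passed the test where its p, adjusted by Benjamini-Hochberg over all 10958 genes, was under 0.05. The leading principal component (65.2% of the variance) set the arrays up to 24 h apart from those at 6 d and 8 d, with 2 d between them. The 4 d arrays differed along it, at 33.6 for A, 46.7 for B and 24.9 for D. All 10 fibroblast markers were above background on all 24 arrays. Of the markers of other cell types with a probe, 6 of 7 epithelial and 5 of 5 immune markers were above background on none. Of the 5 endothelial markers, TEK was above it on 24 arrays, VWF on 18, PECAM1 on 5, KDR on 3 and CDH5 on none. Levels of different probes are not compared, and in bulk RNA fewer cells of a kind and less RNA per cell cannot be told apart.

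Of the 10 genes, 9 changed over the time course (limma moderated F-test, adjusted p under 0.05), against 69.6% of all genes. The activators E2F1 and E2F2, the atypical repressor E2F8 and the partner TFDP1 fell, E2F3 and E2F5 fell for part of the course, and E2F4, E2F6 and E2F7 rose. TFDP2 did not pass (adjusted p = 0.0725). The number past the test against 0 h was 0 at 2 h (0.621% of all genes passed), 1 at 8 h (4.58%), 3 at 24 h (18.1%) and 6 at 2 d (23.6%). It was 7 at 4 d (44.1%), 7 at 6 d (45.5%) and 8 at 8 d (47.6%). With so few members, these counts are a description and were not tested against the share of all genes. At 8 d, 3 members were higher and 5 lower.

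**Figure D1:**
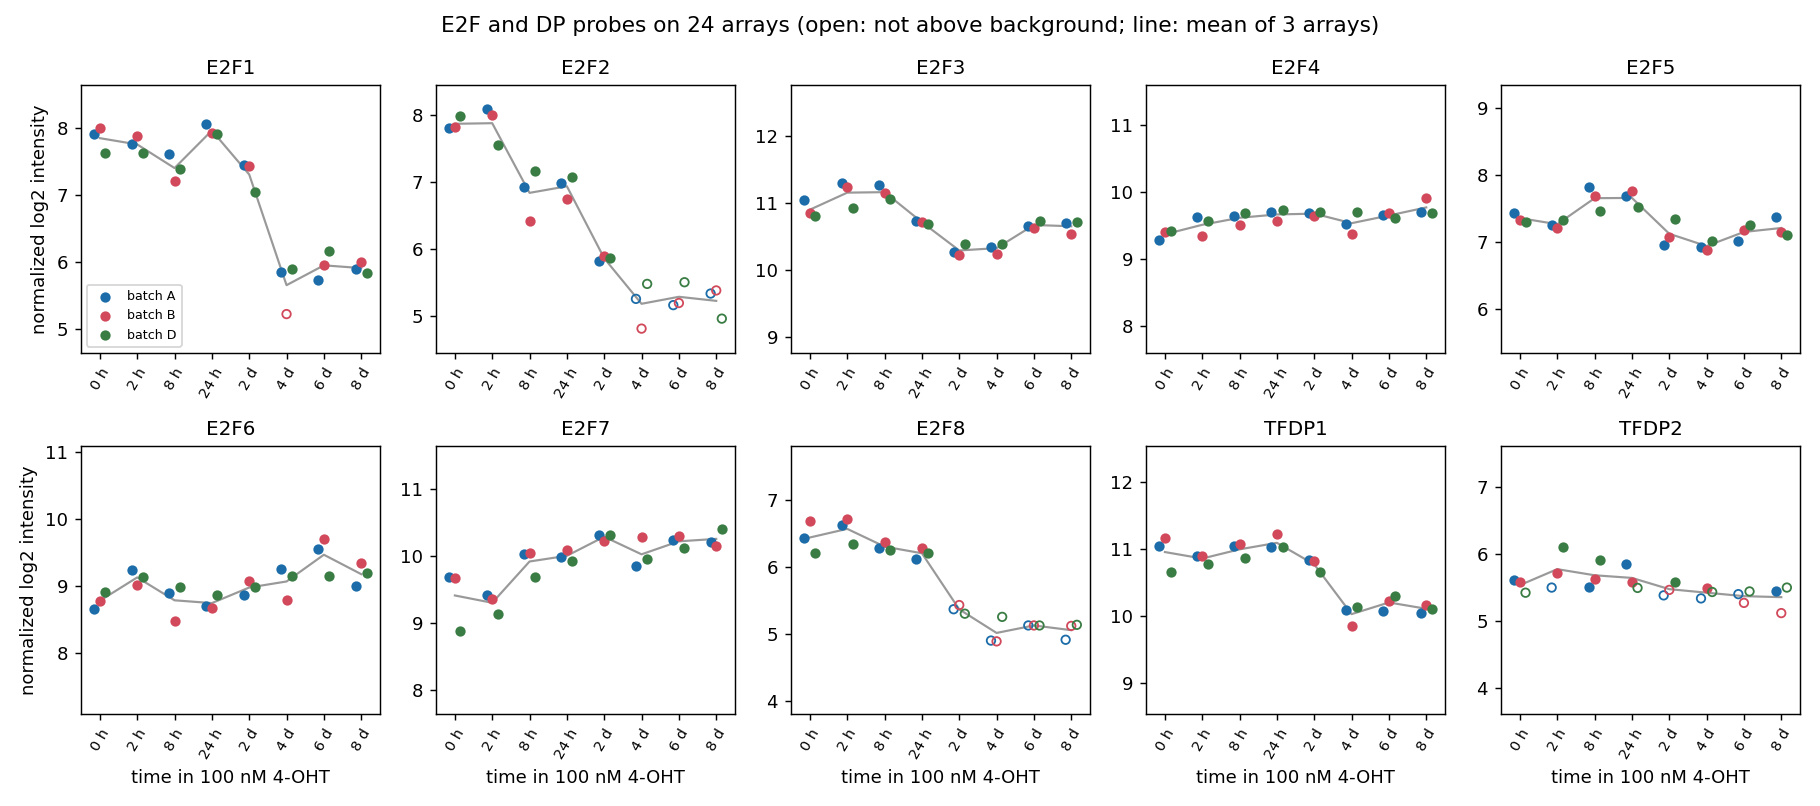
Normalized log2 intensity of the 10 E2F and DP probes on each array (vertical axes, each spanning 4 log2 units) against time in 4-OHT. Points are arrays coloured by batch, open where not above background, and lines join the means of 3 arrays. E2F1 and TFDP1 are near their 0 h levels at 24 h and low from 4 d, while E2F2 is already lower at 8 h.

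The activator E2F2 was the only member past the test at 8 h. It stood at 7.81, 7.82 and 7.98 at 0 h and at 8.09, 8.00 and 7.55 at 2 h, with the groups overlapping. At 8 h it was 6.93, 6.42 and 7.17 and at 24 h 6.99, 6.75 and 7.08, below every 0 h array in both cases. It reached 5.82, 5.90 and 5.88 at 2 d, and on all 9 arrays from 4 d to 8 d, between 4.82 and 5.51, it was not above background. E2F2 fell by 1.03 ± 0.18 on the log2 scale at 8 h (2.04-fold, adjusted p = 0.00132). At 24 h the difference was −0.93 ± 0.18 (adjusted p = 0.000808). Its second step followed from 24 h to 2 d, by −1.08 ± 0.18 (adjusted p = 0.000479, and 0.0806 without batch A), and at 2 d it lay 4.02-fold below 0 h (adjusted p = 2.5e-08). Where the dimmer group was not above background on any array, only a lower limit can be given, taken against the dimmest signal above background on the same arrays. By this limit E2F2 was at least 5.19-fold lower at 4 d, at least 5.08-fold at 6 d and at least 5.12-fold at 8 d. These limits depend on the background offset of 16: with an offset of 50 the E2F2 difference at 4 d still passed but was −1.93, smaller than the limit. The 8 h call was lost without batch A (−1.11, adjusted p = 0.119).

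E2F1, the activator best known for driving S phase, did not pass the test within the first day. It was 7.91, 7.99 and 7.63 at 0 h, 7.76, 7.87 and 7.62 at 2 h, 7.60, 7.21 and 7.38 at 8 h and 8.06, 7.92 and 7.90 at 24 h. The 8 h arrays all lay below the 0 h arrays but the difference of −0.45 ± 0.16 did not pass (adjusted p = 0.115), and at 24 h the difference was 0.11 ± 0.16 (adjusted p = 0.674). At 2 d it was 7.44, 7.42 and 7.04, and at 4 d 5.84, 5.22 and 5.89, of which the batch B array was not above background. It then stayed at 5.73, 5.95 and 6.15 (6 d) and 5.89, 5.99 and 5.84 (8 d), and no array from 4 d on reached the lowest of the earlier ones. E2F1 fell by 0.54 ± 0.16 from 0 h to 2 d (adjusted p = 0.0146), a call lost without batch A (−0.58, adjusted p = 0.116), without batch B (−0.53, adjusted p = 0.0587), or without the 0 h array of batch A (−0.51, 0.0541), the 0 h array of batch B (−0.47, 0.0731) or the 2 d array of batch D (−0.41, 0.0946). From 2 d to 4 d it fell by 1.65 ± 0.16 (3.14-fold, adjusted p = 3.5e-08). Within batches this drop was −1.60 (A), −2.20 (B) and −1.15 (D), and over all batches it was −1.44 without the 4 d array of batch B. Against 0 h, E2F1 was 4.58-fold lower at 4 d, 3.73-fold at 6 d and 3.84-fold at 8 d, and the difference of 8 d from 4 d did not pass (0.25 ± 0.16, adjusted p = 0.278).

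E2F3, the third activator, passed as lower at 2 d and 4 d. It was 11.04, 10.84 and 10.81 at 0 h, 11.30, 11.23 and 10.92 at 2 h, 11.26, 11.15 and 11.06 at 8 h and 10.73, 10.72 and 10.68 at 24 h. Its lowest levels were those of 2 d (10.27, 10.22 and 10.38) and 4 d (10.35, 10.23 and 10.39), and 6 d (10.65, 10.62 and 10.72) and 8 d (10.69, 10.53 and 10.72) lay between these and 0 h. E2F3 fell by 0.61 ± 0.10 at 2 d (adjusted p = 0.000114) and by 0.57 ± 0.10 at 4 d (adjusted p = 7.2e-05). It rose from 4 d to 8 d by 0.33 ± 0.10 (adjusted p = 0.0254), the only member past the test in that step, where 20.4% of all genes passed, and this call was lost in 8 of 19 alternative settings. At 6 d the difference from 0 h was −0.23 ± 0.10 (adjusted p = 0.0719) and at 8 d −0.25 ± 0.10 (adjusted p = 0.0493). The 8 d call lies at the threshold and was lost in 9 of 19 alternative settings. With median centring the rise from 4 d to 8 d was 0.13 (adjusted p = 0.712) and the difference at 8 d from 0 h was −0.51 (adjusted p = 0.0209), so a return towards the 0 h level depends on the normalization.

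The DP partner TFDP1, which dimerizes with E2F1 to E2F6 and is needed for their binding to DNA, passed as lower from 4 d on. It was 11.04, 11.15 and 10.66 at 0 h, 10.90, 10.89 and 10.77 at 2 h, 11.05, 11.06 and 10.86 at 8 h and 11.02, 11.22 and 11.02 at 24 h. After 10.83, 10.81 and 10.66 at 2 d it was 10.09, 9.85 and 10.13 at 4 d, 10.07, 10.23 and 10.30 at 6 d and 10.05, 10.16 and 10.11 at 8 d. All arrays from 4 d on lay below all earlier ones. TFDP1 did not pass the test at 2 d (−0.18 ± 0.12, adjusted p = 0.279), although without the 0 h array of batch D it did (−0.33, adjusted p = 0.0436), and it fell by 0.74 ± 0.12 from 2 d to 4 d (1.67-fold, adjusted p = 2.7e-05). Against 0 h it was 1.90-fold lower at 4 d (adjusted p = 7.7e-07), 1.68-fold at 6 d and 1.80-fold at 8 d (adjusted p = 2.0e-06). Within batches the difference at 4 d was −0.95 (A), −1.31 (B) and −0.53 (D), and batch D had the lowest 0 h array of the 3. TFDP2, the second DP partner, was dim throughout, above background on 12 of 24 arrays and between 5.12 and 6.11, and passed in none of the 10 comparisons.

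The atypical repressors E2F7 and E2F8 went opposite ways. E2F8 was 6.43, 6.70 and 6.21 at 0 h, 6.64, 6.73 and 6.36 at 2 h, 6.29, 6.39 and 6.26 at 8 h and 6.12, 6.29 and 6.22 at 24 h. It was above background on all these 12 arrays and on none of the 12 from 2 d on (4.90 to 5.44). E2F8 was thus at least 1.92-fold lower than 0 h at 2 d (adjusted p = 7.8e-07), at least 1.93-fold at 4 d, at least 1.89-fold at 6 d and at least 1.90-fold at 8 d, and at least 1.63-fold lower at 2 d than at 24 h (adjusted p = 0.000167). Here too the limits depend on the offset, and with an offset of 50 the E2F8 differences still passed but were −0.69 at 2 d and −0.87 at 4 d, smaller than the limits. E2F8 also passed between 2 d and 4 d, but both groups were below background, so neither a fold nor a direction is read from it, and the call was lost in 11 of 19 alternative settings.

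E2F7 was 9.69, 9.67 and 8.88 at 0 h, the batch D array lying apart from the others, and 9.42, 9.35 and 9.13 at 2 h. It was 10.03, 10.04 and 9.68 at 8 h, 9.99, 10.10 and 9.92 at 24 h and 10.32, 10.23 and 10.32 at 2 d. The later levels were 9.85, 10.28 and 9.96 at 4 d, 10.24, 10.29 and 10.12 at 6 d and 10.22, 10.15 and 10.41 at 8 d. From 24 h on, all 15 arrays lay above all 3 arrays of 0 h. At 8 h its difference from 0 h was 0.51 ± 0.16 and did not pass (adjusted p = 0.0773), but did without the 0 h array of batch A, the 0 h array of batch B or the 8 h array of batch D. E2F7 rose by 0.59 ± 0.16 at 24 h (1.51-fold, adjusted p = 0.0133) and by 0.88 ± 0.16 at 2 d (1.84-fold, adjusted p = 0.000344). At 8 d it was 1.80-fold above 0 h (adjusted p = 0.000147), by 0.53, 0.47 and 1.53 within batches A, B and D. Without the 0 h array of batch D the differences were 0.33 at 24 h (adjusted p = 0.130), 0.61 at 2 d (0.00243), 0.35 at 4 d (0.0440), 0.54 at 6 d (0.00240) and 0.58 at 8 d (0.00129), so that the 24 h call was lost and the others passed. The 24 h call was also lost without batch A, batch B or the 24 h array of batch B, and in 7 of 19 settings in all. Without the whole of batch D they were 0.37 at 24 h (adjusted p = 0.0617), 0.38 at 4 d (0.0206) and 0.50 at 8 d (0.00374).

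The repressor E2F4, the main E2F of resting cells, was 9.28, 9.40 and 9.42 at 0 h and between 9.34 and 9.91 on all other arrays. It passed at 24 h (0.30 ± 0.10, adjusted p = 0.0441), 2 d (0.31, 0.0289), 6 d (0.28, 0.0263) and 8 d (0.40, 0.00210). These rises were no more than 1.32-fold. With each array centred on its median in place of quantile normalization, all 4 calls were lost and the values lay between 0.08 (6 d) and 0.16 (2 d). The calls were lost in 11 of 19 alternative settings at 24 h, 10 at 2 d and 7 at 6 d, and the 8 d call without batch A (0.39, adjusted p = 0.0642). E2F5, the related repressor, was 7.44, 7.32 and 7.30 at 0 h, 7.26, 7.21 and 7.32 at 2 h, 7.81, 7.68 and 7.46 at 8 h and 7.69, 7.76 and 7.52 at 24 h. It then was 6.96, 7.07 and 7.34 at 2 d and 6.92, 6.87 and 7.02 at 4 d, its lowest group, before 7.02, 7.18 and 7.25 at 6 d and 7.37, 7.15 and 7.10 at 8 d. E2F5 fell from 24 h to 2 d by 0.53 ± 0.11 (adjusted p = 0.00320, but 0.0958 with median centring, 0.174 without batch A and 0.149 without batch B) and stood at −0.42 ± 0.11 against 0 h at 4 d (adjusted p = 0.00447), a call lost without batch A (−0.37, 0.0764) or batch B (−0.40, 0.0870). E2F5 did not pass against 0 h at 24 h, where it stood higher (0.30 ± 0.11, adjusted p = 0.0684), or at 2 d (−0.23 ± 0.11, adjusted p = 0.147). At 8 d its difference from 0 h was −0.15 ± 0.11 (adjusted p = 0.299).

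E2F6, the RB-independent repressor, was 8.66, 8.78 and 8.91 at 0 h. It was highest at 6 d (9.55, 9.70 and 9.15) and then 9.00, 9.35 and 9.19 at 8 d, both above all 0 h arrays. The 2 h arrays (9.23, 9.01 and 9.14) also lay above all 0 h arrays, by 0.35 ± 0.15 without passing (adjusted p = 0.611). At 8 h and 24 h the groups overlapped with 0 h. E2F6 rose by 0.69 ± 0.15 at 6 d (1.61-fold, adjusted p = 0.000571), and within batches it stood 0.89 (A), 0.93 (B) and 0.25 (D) above 0 h. The 8 d rise of 0.40 ± 0.15 (adjusted p = 0.0321) was lost in 7 alternative settings, among them median centring (0.12, adjusted p = 0.627).

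**Figure D2:**
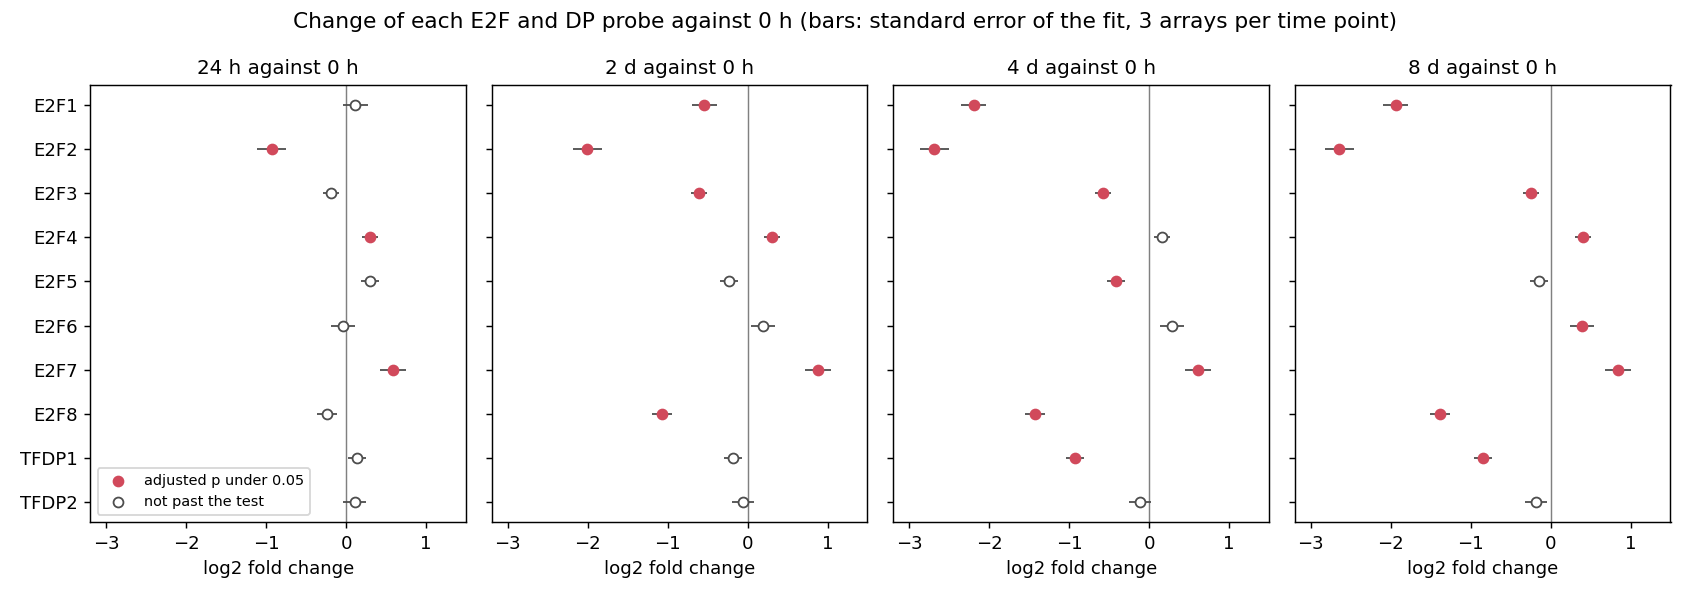
Log2 fold change of each E2F and DP probe against 0 h (horizontal axes) at 24 h, 2 d, 4 d and 8 d, with the standard error of the fit of all 24 arrays as bars (n = 3 arrays per time point). Filled points passed the test. E2F2 lies to the left in all 4 panels, E2F8 passed to the left from 2 d, E2F1 lies far to the left from 4 d with TFDP1 closer to the line, and E2F7 lies to the right in all 4 panels.

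Besides the fall of E2F2 by 8 h, members passed as lower in both steps between 24 h and 4 d. From 24 h to 2 d, 5 of the 10 genes were lower and 0 higher (E2F1, E2F2, E2F3, E2F5 and E2F8), where 12.0% of all genes passed. From 2 d to 4 d, 4 passed with lower values and 0 with higher (E2F1, E2F2, TFDP1 and E2F8), where 36.2% of all genes passed, a share close to that of the members. E2F8 was below background in both groups, so no direction is read from its call. E2F2 was not above background on any 4 d array, and its fall in this step was at least 1.29-fold. Leaving out batch A gave 1 member past the test in the first step and 2 in the second, and leaving out batch B gave 3 and 2. The median change of the 10 genes was −0.37 in the first step and −0.22 in the second, against 0.01 and −0.01 over all genes. Against 0 h their median was −0.50 at 4 d and −0.21 at 8 d, against 0.01 and 0.02 over all genes.

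Across the 24 arrays, which share the time course, E2F1 correlated most with TFDP1 among the members (Pearson r = 0.96) and E2F2 with E2F8 (0.95). E2F1 and E2F2 had r = 0.89, and E2F7 ran against E2F2 (−0.81) and E2F8 (−0.68). E2F4 and E2F5 showed almost none (0.01). E2F2 was above background on 15 of the 24 arrays and E2F8 and TFDP2 on 12 each, so all correlations of these probes include values at background. Of all other genes tested, those most like E2F1 were MCM2 (0.99), a subunit of the replicative helicase, PRIM1 (0.98), a primase subunit, and GINS2 (0.98), part of the helicase complex. For TFDP1 they were SUV39H1 (0.98), a histone methyltransferase, TRIP13 (0.98), an ATPase of the mitotic checkpoint, and DSCC1 (0.97), which acts in clamp loading. For E2F2 they were SETD2 (0.98), a histone methyltransferase, CCNE2 (0.97), a cyclin, and FOXJ2 (0.97), and for E2F8 SLC8A1, OXTR and RRAS2 (0.96 to 0.97). For E2F7 they were PITPNC1 (0.95), STC1 (0.89) and FJX1 (0.88), and for E2F3 MTMR9 (0.95), ANKRD1 (0.94) and C3orf52 (0.92). The closest genes of the other 4 members had lower values: 0.85 to 0.87 for E2F5 (TAF1A, ZFAND1 and PCNX4), 0.85 to 0.88 for E2F6 (SLC26A11, AKAP8 and COQ10B), 0.81 to 0.83 for E2F4 (DHX34, COA4 and HPS1) and 0.72 to 0.73 for TFDP2 (RTN4, MYL12B and WWC2).

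**Figure D3:**
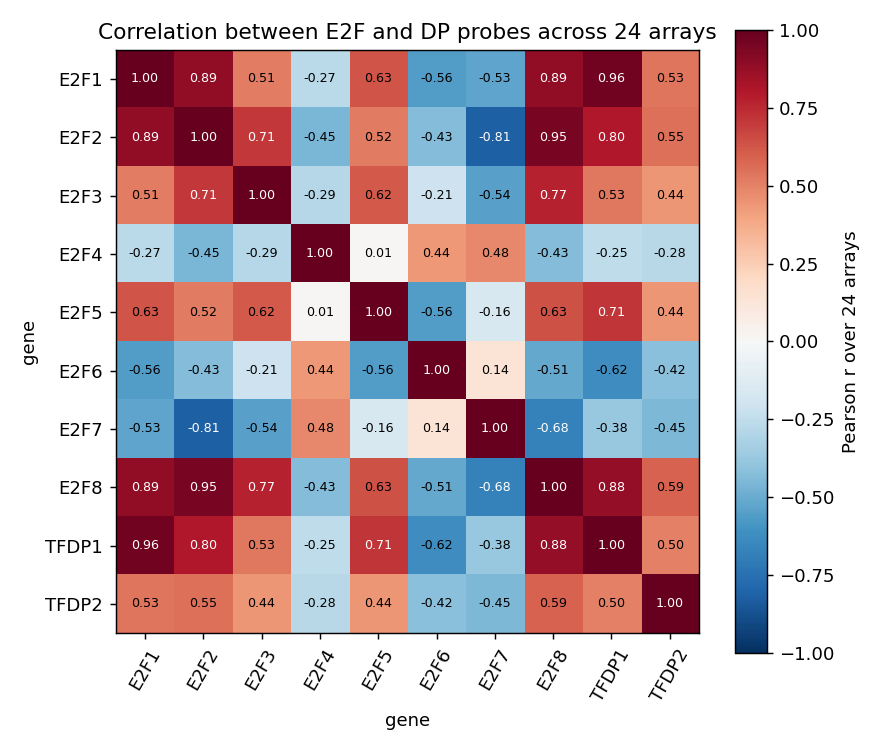
Pearson correlation of each pair of E2F and DP probes across the 24 arrays, on normalized log2 intensities (both axes list the 10 genes, colour gives r from −1 to 1). E2F1, E2F2, E2F8 and TFDP1 form a block between 0.80 and 0.96, and E2F7 is negative against E2F2 (−0.81). E2F2 was above background on 15 of the arrays and E2F8 on 12.

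The genes that E2F activators are known to switch on were followed as a list of 56 replication and G1/S genes, of which 52 were measured. At 24 h, when E2F2 was down and E2F1 was not, 1 was higher (GINS4, 0.49) and 3 were lower (MCM6, −0.70, CCNE1, −0.41, and CCNE2, −0.68), with a list median of −0.01, where 18.1% of all genes passed. The number higher was 0 with median centring or without batch A, and the number lower was 1 without batch A or without batch B. At 2 d, 34 were lower and 0 higher, with a median of −0.58 against 0.01 over all genes, where 23.6% of all genes passed. Without batch A only 5 were lower, while the calls over all genes went from 2584 to 866. At 4 d 49 were lower and 0 higher (median −1.87), at 6 d 48 (−1.91) and at 8 d 48 (−2.02). At these times 44.1%, 45.5% and 47.6% of all genes passed. From 2 d to 4 d alone, 46 fell and 0 rose (median −1.28), where 36.2% of all genes passed. The steepest at 2 d were CCNE2, an S-phase cyclin (−1.51 ± 0.20, adjusted p = 8.5e-06), and TYMS, the thymidylate synthase (−1.23 ± 0.18, adjusted p = 1.7e-05). At 8 d they were CDK1, the mitotic kinase (−3.97 ± 0.39, adjusted p = 1.3e-08), and TK1, the thymidine kinase (−3.78 ± 0.20, adjusted p = 7.7e-13, above background on 2 of 3 arrays).

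The regulators upstream of the E2F proteins were a list of 17 measured genes of pocket proteins and G1 control, which shares CCNE1, CCNE2 and RBL1 with the list of E2F-activated genes. At 2 d, 2 rose and 5 fell, and at 8 d 5 rose and 9 fell, where 23.6% and 47.6% of all genes passed. CDKN2B, an inhibitor of CDK4 and CDK6 that keeps RB1 active, went from 6.15 to 8.49 at 2 d (2.34 ± 0.26, adjusted p = 4.5e-07) and stood 2.71 ± 0.26 above 0 h at 8 d. CDKN2A, the locus of the related inhibitor p16, rose by 0.94 ± 0.21 at 2 d (adjusted p = 0.00215) and 2.08 ± 0.21 at 8 d (adjusted p = 2.1e-08). CDK6 fell at 2 d (−1.42 ± 0.12, adjusted p = 6.9e-09), and CDK2, the partner kinase of cyclin E, at 8 d (−2.35 ± 0.16, adjusted p = 1.9e-11). CDKN1A, an inhibitor of CDK2 named here after its values were seen, did not pass at 2 d (0.07 ± 0.13, adjusted p = 0.784) and rose by 1.22 ± 0.13 from 2 d to 4 d (adjusted p = 2.8e-07). CDKN2B also rose in that step, by 1.40 ± 0.26 (adjusted p = 0.000165). Of the 17 genes, 4 rose and 4 fell from 2 d to 4 d, where 36.2% of all genes passed. Of the pocket proteins themselves, named here likewise after their values were seen, RBL1 fell at 2 d (−0.48 ± 0.16, adjusted p = 0.0285), a call lost without batch A (−0.39, 0.335), without batch B (−0.49, 0.110) and without single arrays of 0 h or 2 d. RB1 fell by 0.69 ± 0.18 at 8 d (adjusted p = 0.00256), and RBL2 differed from 0 h by 0.23 ± 0.14 at 8 d without passing (adjusted p = 0.167).

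The complexes in which E2F4, E2F5 and E2F6 work were followed as lists too. Of 8 measured genes of the MuvB core and the DREAM complex, which represses cell cycle genes with E2F4 or E2F5, 3 fell at 2 d and 0 rose, and at 8 d 5 fell and 1 rose. At these times 23.6% and 47.6% of all genes passed. This list shares RBL1 and MYBL2 with the list of E2F-activated genes, and RBL1 and RBL2 with that of pocket proteins, so the counts of these lists are not separate. It also takes in MYBL2 and FOXM1, which join MuvB but are not part of the DREAM repressor, so its counts are not of that repressor alone. LIN9 (−2.04 ± 0.16, adjusted p = 2.4e-10) and FOXM1, an activator that joins MuvB in G2 (−2.08 ± 0.14, adjusted p = 1.7e-11, above background on 1 of 3 arrays), fell at 8 d. LIN54, the DNA-binding subunit of MuvB, fell at 2 d (−0.63 ± 0.13, adjusted p = 0.00113), and LIN37 rose at 8 d (0.47 ± 0.15, adjusted p = 0.00939), a call lost with median centring (0.31, adjusted p = 0.155). None of the 3 falls at 2 d passed without batch A. Of 11 measured genes of E2F6 complexes, 2 fell at 2 d, and at 8 d 2 rose and 3 fell, shares close to those of all genes (23.6% at 2 d and 47.6% at 8 d). The 2 falls at 2 d became 0 without batch A or with the mean of a gene's kept probes. MAX, a DNA-binding partner, rose at 8 d (0.55 ± 0.14, adjusted p = 0.00279, and 0.52 with adjusted p = 0.0542 without batch A), as did L3MBTL2 (0.37 ± 0.12, adjusted p = 0.0115, lost with median centring at 0.10). PCGF6, a Polycomb ring finger protein, fell by 0.67 ± 0.13 (adjusted p = 0.000210) and WDR5 by 0.72 ± 0.12 (adjusted p = 4.1e-05) at 8 d.

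Among 8 measured genes that act in E2F and DP turnover, 4 fell at 2 d and 0 rose, where 23.6% of all genes passed. At 8 d 5 fell and 1 rose, where 47.6% of all genes passed. The number of falls at 2 d was 2 without batch A or without batch B. CCNF, the F-box protein known to target E2F factors, fell by 1.00 ± 0.19 at 2 d (adjusted p = 0.000453). FBXO5, an inhibitor of the anaphase-promoting complex, fell by 1.08 ± 0.28 at 2 d (adjusted p = 0.00727, and 0.157 without batch A) and stood at −3.39 ± 0.28 at 8 d (adjusted p = 8.5e-10). CKS1B, a cofactor of the SKP2 ligase, fell by 2.24 ± 0.15 at 8 d (adjusted p = 2.1e-11). MDM2 was 0.36 ± 0.12 higher at 8 d (adjusted p = 0.0204), but not with median centring (0.27, adjusted p = 0.159) or without batch D (0.13, adjusted p = 0.392). Of 5 measured apoptosis genes that respond to E2F1, 1 fell at 2 d and 2 at 8 d, and 0 rose at either time, which is no more than the share of all genes that passed. APAF1, the apoptosome scaffold, fell by 0.42 ± 0.11 at 2 d (adjusted p = 0.00878, lost without batch A or B) and stood at −0.86 ± 0.11 at 8 d, and SIVA1, a death-receptor adaptor, fell by 0.81 ± 0.14 at 8 d (adjusted p = 3.0e-05).

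**Figure D4:**
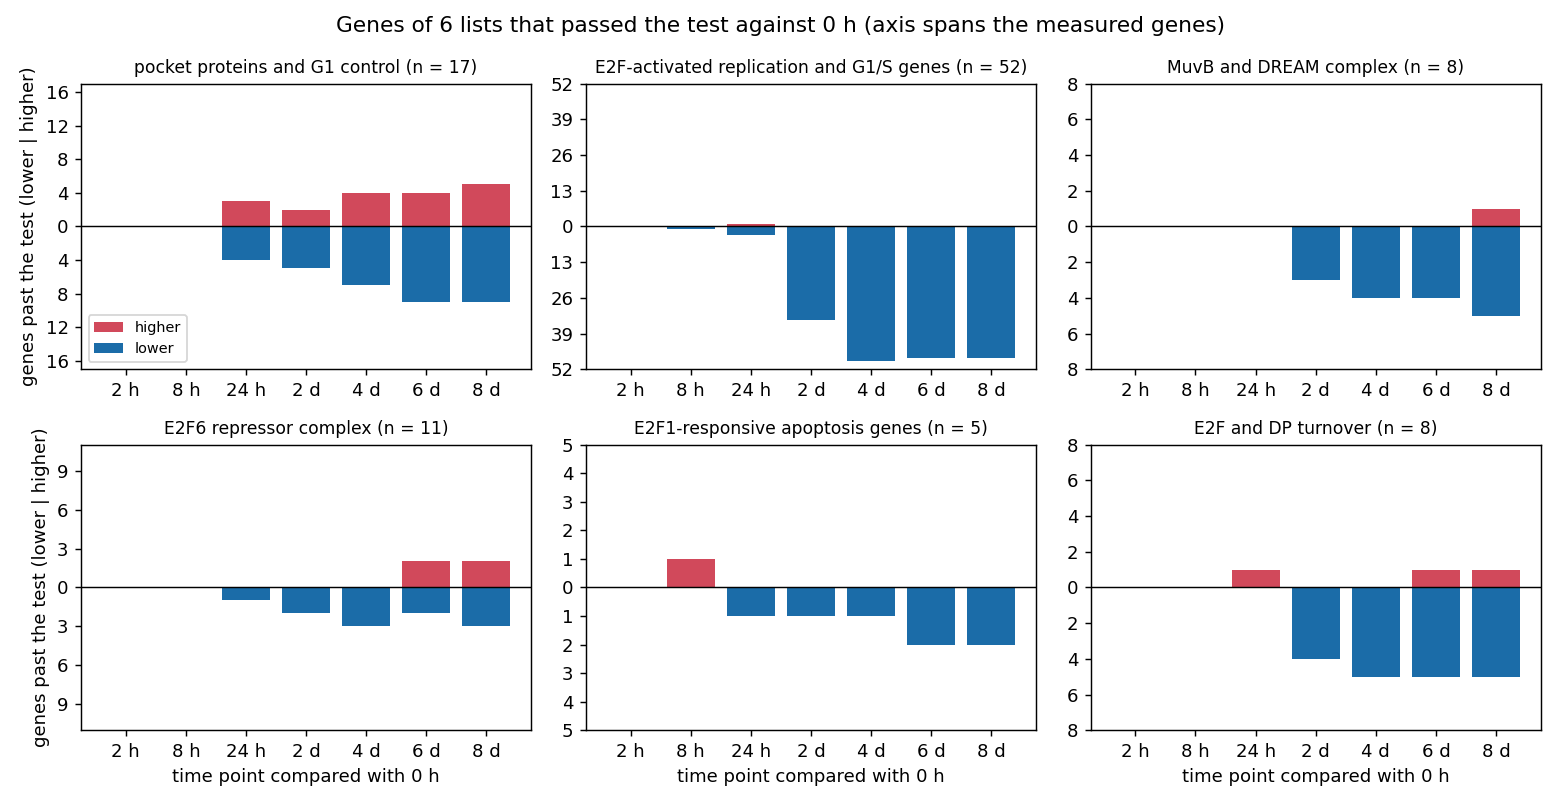
Number of genes of 6 lists that passed the test against 0 h at each time in 4-OHT (upward bars higher, downward bars lower, vertical axis spanning the measured genes of each list). In the list of E2F-activated genes, 34 of 52 were lower at 2 d and 49 at 4 d, where 23.6% and 44.1% of all genes passed. The list of pocket proteins and G1 control moved both ways.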

How the data were processed

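Per the labels' protocols, total RNA was extracted with an RNeasy kit and biotin-labelled cRNA was hybridized to Illumina arrays. The deposited values are log2 intensities of 48701 probes per array (3.21 to 14.82). The steps by which the authors made them, and any detection p or control probes, are not given in the sources used here. The deposited series matrix holds log2 values that were quantile-normalized, judged by the values. Here the deposited array values were unlogged, background-corrected by normexp (limma 3.58.1, R 4.3.3, offset 16) and quantile-normalized. A probe was above background where a model of each array's mode and lower spread gave p under 0.01 (26.5% to 30.0% of probes per array). A probe had to pass on 3 or more arrays (15993 did), and the brightest such probe in the series matrix stands for its gene. Probes were assigned to genes by GEO's platform annotation, with 23687 probes having 1 symbol and 25014 several or none. The symbol was then replaced by the RefSeq symbol of the same gene identifier, which was found for 99.8% of the probes with 1 symbol.

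Genes were tested with limma on 8 group means with no block (16 residual and 6.7 prior degrees of freedom). The 7 comparisons with 0 h share its 3 arrays. The labels give the letters as biological batches, so they pair the arrays, although residuals of the same letter had mean correlations of only 0.0368 (A), 0.0043 (B) and 0.0599 (D) against −0.0158 otherwise. The arrays' number limits the precision. The members, lists and tests were chosen with earlier results of these data known. The genes named are the 10 members, the 3 genes most correlated with each, and up to 2 rises and 2 falls per list at 2 d and 8 d, with others named in the text as they occur. Promoter words were searched in windows of 250 bases of RefSeq.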

Additional observations from a re-analysis of the deposited data

How the results depend on the processing

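Of 42 member values that passed, 23 kept their call and direction in all of their alternatives (19 for each comparison), 19 lost the call in at least 1, and 0 reversed. The falls of E2F1 at 4 d, 6 d and 8 d, of E2F2 from 24 h on, of E2F8 and of TFDP1 against 0 h were among the 23. With the batch letter as a replicate block all 100 member values kept their call, and the counts stayed at 3 (24 h), 6 (2 d), 7 (4 d and 6 d) and 8 (8 d). With median centring the counts were 1 at 24 h, 5 at 8 d, 3 at 2 d against 24 h and 0 at 8 d against 4 d. Median centring put the median of all genes at −0.19 (2 h), −0.13 (24 h), −0.10 (2 d), −0.12 (6 d) and −0.15 (8 d), and the share of higher genes among the calls went from 38.1% to 10.5% at 24 h, from 46.8% to 20.5% at 2 d, from 49.5% to 37.3% at 4 d, from 52.2% to 30.4% at 6 d and from 50.7% to 27.3% at 8 d (67.6% to 56.5% at 2 h, and 50.7% to 25.0% for 8 d against 4 d). E2F7 then lost its calls at 24 h (0.43, adjusted p = 0.271), 4 d (0.51, 0.107) and 8 d (0.56, 0.0618), and the cause was not tested. The count at 8 d against 4 d was 0 with no filter on dim probes and 0 with only the 6 arrays compared, which gave 1 at 24 h. Leaving out 1 array or 1 batch gave 0 to 2 members at 8 h, 1 to 2 at 24 h, 4 to 7 at 2 d, 6 to 8 at 4 d, 6 to 8 at 6 d, 5 to 8 at 8 d, 1 to 5 at 2 d against 24 h, 2 to 4 at 4 d against 2 d, 0 to 3 at 8 d against 4 d and 7 to 10 over the time course, with the lone or paired arrays assumed to vary like the other groups. Without batch A the calls over all genes also went from 502 to 27 at 8 h and from 2584 to 866 at 2 d. For 2 d against 24 h they went from 1317 to 120, so the loss of calls without batch A was not particular to the members. An offset of 50 moved E2F8 at 4 d from −1.42 to −0.87, since the offset sets the size of changes near background.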
